A study of Mus musculus with 6 samples.

Results

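The genes described here were 41 DNA repair genes, chosen by symbol from 6 pathways and not by their values. Earlier results of these data were known when they were chosen. The largest pathways were base excision and single-strand break repair (12 genes), nucleotide excision repair (10) and break sensing and signalling (7). The others were non-homologous end joining (5), homologous recombination (4) and mismatch repair (3). All 41 were among the 24532 genes of the deposited expression table. RNA was sequenced from the gastrocnemius, a mostly fast-twitch calf muscle, of C57BL/6 mice aged 20 weeks, which the methods give as male. The 3 WT mice carried floxed Sirt6 (Sirt6 flox/flox) without Cre. The 3 mice labelled Sirt6 KO carried the same floxed Sirt6 together with Myl1-Cre, in which a myosin light chain gene of fast fibers drives the recombinase, so that deletion was aimed at fast fibers and not at the other cells of the muscle. The comparison asks how the transcriptome of the muscle differs when Sirt6 is deleted in these fibers.

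DNA repair is divided by the kind of damage. In base excision repair a glycosylase removes an altered base, the endonuclease APEX1 cuts the strand, DNA polymerase beta fills the gap and a ligase with XRCC1 seals it. Nucleotide excision repair opens the helix around a bulky lesion and cuts the damaged strand on both sides, and double-strand breaks are either joined end to end by the Ku and DNA-PK machinery or copied from a sister chromatid by homologous recombination, which needs a dividing cell. SIRT6 is a chromatin-bound NAD-dependent deacylase known for acting in base excision and break repair, where it modifies PARP1 and brings the remodeler SNF2H (Smarca5) to breaks. Skeletal muscle fibers are post-mitotic.

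Sirt6 itself went against the labels. Its level was 2.77, 2.23 and 2.88 CPM (read counts brought to a common library total with the scaling factors of the fit) in the WT libraries and 7.81, 7.44 and 6.68 in those labelled Sirt6 KO, so every library labelled Sirt6 KO exceeded every WT library (log2 fold change 1.48 ± 0.17 (SE), adjusted p = 0.0113). Without Sirt6 KO replicate 1 or replicate 3 the log2 fold change was 1.43 or 1.54 and the adjusted p rose to at most 0.065. The deposited TPM likewise gave 2.93 to 3.90 for WT and 7.75 to 9.62 for the Sirt6 KO label. A count over the whole gene does not separate the floxed exons. Every direction below is therefore stated for the libraries as labelled. The libraries held 44845763 to 63016899 counts, so that 1 count was worth 0.0165 to 0.0212 CPM. The summed level of 11 fast muscle markers was 153403, 164987 and 239228 CPM in WT replicates 1, 2 and 3 and 221007, 224491 and 250760 CPM in the Sirt6 KO replicates. The summed level of 6 slow fiber markers was 2547, 2142 and 52.3 CPM in WT and 192, 1542 and 320 CPM in the Sirt6 KO replicates. In slow markers WT replicate 3 and Sirt6 KO replicate 2 each stood apart from their own group, so both groups were mixed. Values without WT replicate 3 are given below.

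The repair genes spanned a wide range of levels in WT muscle. On the deposited FPKM scale, which divides by transcript length and so allows genes to be compared, Ddb1 had the highest mean WT level. It stood at 59.2 ± 4.45 FPKM (SD, n = 3) and encodes the adaptor of a cullin ubiquitin ligase that also acts at ultraviolet lesions. Polb, the gap-filling polymerase of base excision repair, followed at 47.1 ± 3.29 FPKM. Parp1, the main sensor of single-strand breaks, came next at 17.9 ± 1.33 FPKM, and was itself clear of Polb in every library. Apex1 (14.4 ± 2.08 FPKM), Xrcc5, which encodes Ku80 (13.1 ± 2.86), Ercc1 (12.9 ± 1.58), Xrcc6, which encodes Ku70 (12.1 ± 1.02) and Nbn (10.7 ± 0.54) completed the 8 genes above 10 FPKM. Another 25 genes lay between 1 and 10 FPKM and 8 lay at or below 1. Those 8 were Prkdc, Ercc4, Pms2, Mutyh, Lig1, Neil2, Brca2 and Brca1. Brca2 and Brca1, which act in homologous recombination, were the lowest at 0.058 ± 0.0119 and 0.0232 ± 0.00438 FPKM, and Brca1 had 5 to 11 counts a library. Of the 40 pairs of neighbours in the order of mean WT level, 33 had overlapping WT ranges, so most of the order inside the list was not resolved by 3 libraries. The median gene of the list stood at 2.86 FPKM, beside 3.48 for all genes tested.

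**Figure D1:**
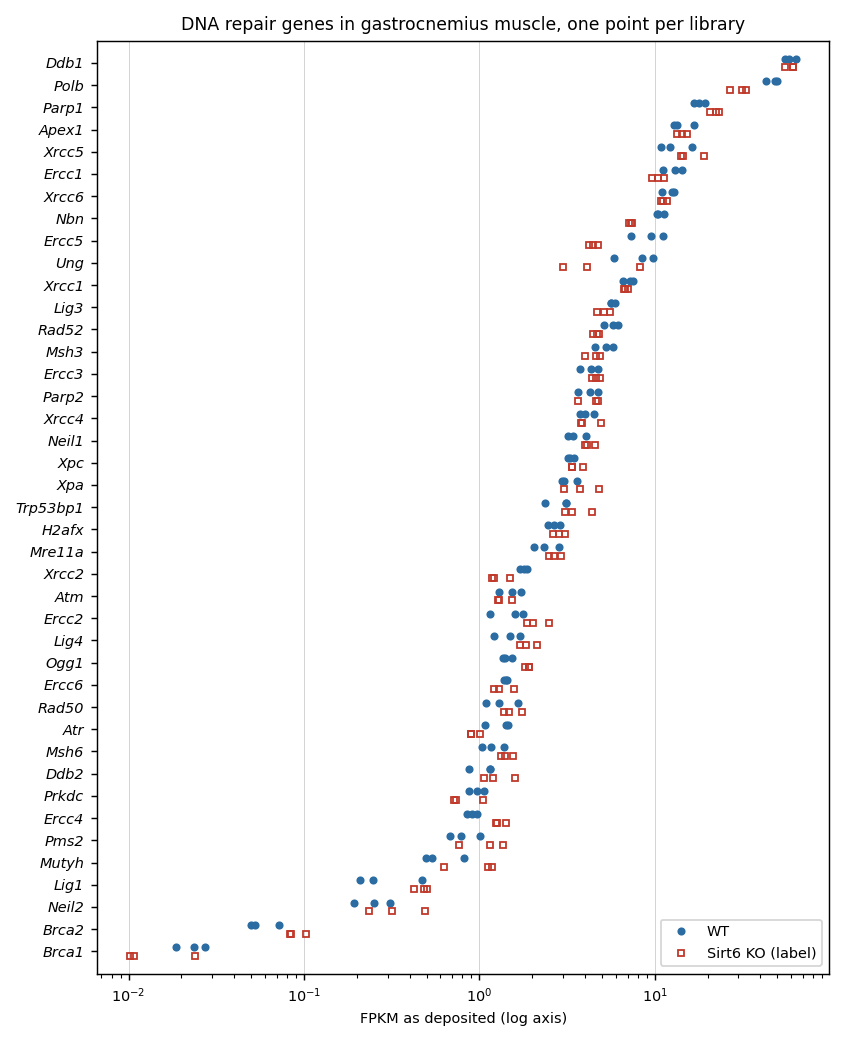
FPKM as deposited (log axis) of each of the 41 DNA repair genes, 1 point per library, with WT as filled circles and the libraries labelled Sirt6 KO as open squares, ordered by mean WT level. Ddb1 and Polb stand above all others and Brca2 and Brca1 below; the groups separate, among others, for Polb, Nbn and Ercc5 with WT on the right and for Parp1 and Ercc4 with WT on the left.

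Between the groups, 4 of the 41 repair genes passed the test, and they did not go the same way. Ercc5, Polb and Nbn were lower with the Sirt6 KO label and Ercc4 was higher (edgeR quasi-likelihood test, Benjamini-Hochberg over the 13801 genes tested, adjusted p below 0.05). All 41 repair genes passed the filter on low counts. The 4 genes were 9.76% of the list, beside 16.2% of all genes tested. The 1 higher gene stood beside 7.85% of all genes called higher, and the 3 lower genes beside 8.39% called lower, so the list was called no more often than genes at large. The smaller differences leaned upwards. The log2 fold change was positive in 29 of the 41 genes (70.7%), beside 48.4% of all genes tested, and its median was 0.24, beside -0.02 for all genes. An unadjusted p below 0.05 was found for 16 repair genes, 12 higher and 4 lower, against 35.3% of all genes tested in either direction and 17.2% higher. In the same number, 16 genes, the groups did not overlap: 12 had all 3 libraries labelled Sirt6 KO above all WT libraries and 4 had them below. That happened in 40.0% of all genes tested, 20.3% above and 19.6% below. For a single gene the exact two-sided permutation test over 3 against 3 libraries cannot go under p = 0.1.

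**Figure D2:**
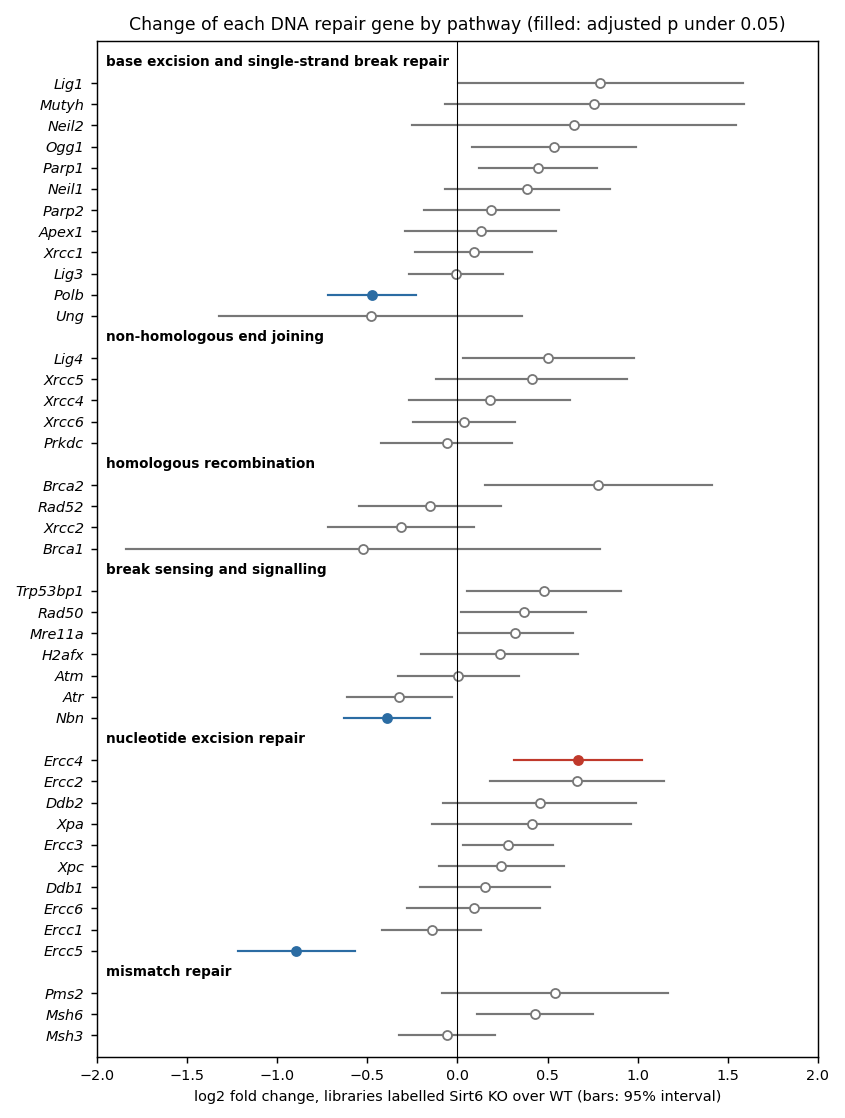
Log2 fold change of each DNA repair gene in the libraries labelled Sirt6 KO over WT, grouped by pathway, with 95% intervals as bars; filled points passed an adjusted p of 0.05 (red higher, blue lower). Ercc4 at 0.67 and Ercc5 at -0.89 lie at opposite ends of nucleotide excision repair, and most open points lie to the right of 0.

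Nucleotide excision repair held the largest fall and the only rise of the list that passed the test. Ercc5 encodes XPG, the nuclease that cuts the damaged strand on the 3′ side of the lesion. It lies on chromosome 1, 44146948 to 44181260 (GRCm38.p6), and overlaps no other RefSeq gene. Its level was 37.6, 47.5 and 35.7 CPM in the WT libraries and 19.9, 21.5 and 23.5 CPM in those labelled Sirt6 KO. The groups were far apart: the highest library labelled Sirt6 KO lay well under the lowest WT library. Ercc5 fell by 0.89 on the log2 scale (SE 0.14, 95% interval -1.22 to -0.57, adjusted p = 0.014). It kept its direction in all 17 alternative analyses and passed the threshold in 15 of them. The exceptions left out Sirt6 KO replicate 1 or 3.

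Ercc4 encodes XPF, which with ERCC1 forms the nuclease that cuts on the 5′ side. It lies on chromosome 16, 13109366 to 13152009, and also overlaps no other RefSeq gene. Its level was 6.06, 6.07 and 7.91 CPM in the WT libraries and 11.3, 10.2 and 10.3 CPM in the libraries labelled Sirt6 KO. All of the latter were above all WT libraries, although WT replicate 3 lay closer to them than the others did. Ercc4 rose by 0.67 on the log2 scale (SE 0.15, 95% interval 0.31 to 1.03, adjusted p = 0.0303). Its direction was unchanged in all 17 alternatives, but it passed the threshold in only 9 of them, with an adjusted p of up to 0.107. Both limma analyses of FPKM called Parp1 higher and not Ercc4. Of the 6 analyses that left out a library, Ercc4 passed in only 1, the one without WT replicate 3.

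The 2 incision nucleases thus moved in opposite directions within the same libraries. The ratio of Ercc5 to Ercc4, formed after their values had been seen, was 6.22, 7.82 and 4.52 on the CPM scale in the WT libraries and 1.77, 2.1 and 2.27 in those labelled Sirt6 KO. Every WT library was above every library labelled Sirt6 KO. The mean ratio was 6.18 ± 1.65 and 2.05 ± 0.258 (SD, n = 3 each), a difference of -1.57 on the log2 scale. The ratio restates the separate changes of its 2 genes and was not tested. The partner of XPF did not follow it: Ercc1 stood at 15.1 ± 1.35 CPM in WT and 13.7 ± 0.829 CPM in the libraries labelled Sirt6 KO (log2 fold change -0.14, 95% interval -0.42 to 0.13).

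The promoters of both nuclease genes were looked at because they moved in opposite directions. RefSeq start sites (GRCm38.p6) were matched for 31 of the 41 genes. The start sites used, position 13109736 for Ercc4 and 44147744 for Ercc5, lie inside the gene spans given above, which begin further upstream, so the bases shown are inside those spans. Which start is used in muscle was not measured. Each of the 2 held a single CCAAT box, a common promoter element, in the 250 bases before the start. Below are 30 bases around it, and 30 bases around a TGACG, the core of the cyclic AMP response element, before the start of Xrcc5. All are 5′ to 3′ on the strand of the gene, which is the plus strand for all 3, with the motif in capitals. In Ercc4 and Xrcc5 it is read on the other strand.
Ercc4, chr16:13109533-13109562, CCAAT box starting 191 bases before the start: tgaactgtcggtATTGGaggattacgcgga
Ercc5, chr1:44147537-44147566, CCAAT box starting 195 bases before the start: ccattaagaaagCCAATatgtgcaaacact
Xrcc5, chr1:72307288-72307317, TGACG starting 121 bases before the start: cttgaatgggctCGTCAggcttgatgacaa

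Searched on both strands from 250 bases before to 50 bases after the start, TGACG was found in 17 of the 31 matched repair genes (54.8%), against 34.3% of the promoters of genes tested and 23.0% of all promoters. The genes with it did not share a direction. Atr, Brca1, Ercc5, Msh3 and Rad52 had negative log2 fold changes and the others positive ones. In Ercc5 it was not found when only bases before the start were searched. CCAAT was found in 15 (48.4%), against 42.6% of the promoters of genes tested. The full element TGACGTCA, which contains TGACG on both strands, was found in Brca2 alone, against 3.40% of genes tested. Of 2 forms of the E2F site, TTTGGCGC was found in Msh3 and TTCCCGCC in Msh6, and the NRF1 site CGCATGCG was found in Ercc6, Lig4 and Xpa (9.68%, against 4.12%). These are matches of letters and not measurements of binding.

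The other 7 genes of nucleotide excision repair did not pass the test. Ddb1, the highest of them, stood at 240, 244 and 323 CPM in WT and 271, 308 and 318 CPM in the libraries labelled Sirt6 KO, with WT replicate 3 above all others. Its log2 fold change was 0.15 ± 0.15 (SE, adjusted p = 0.517). Ercc2 and Ercc3 encode XPD and XPB, the helicases of TFIIH that open the helix. Ercc2 was at 5.78 ± 1.31 and 9.15 ± 1.25 CPM (log2 fold change 0.66, adjusted p = 0.0677) and Ercc3 at 12.3 ± 0.166 and 15.0 ± 0.965 CPM (0.28, adjusted p = 0.111), WT first, and in both genes the groups did not overlap. The damage sensors Ddb2 and Xpc and the scaffold Xpa had log2 fold changes of 0.46, 0.24 and 0.41 with adjusted p of 0.199 to 0.277. Ercc6, the transcription-coupled repair factor CSB, stood at 0.09 (adjusted p = 0.713).

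In base excision and single-strand break repair, 1 of 12 genes passed. Polb lies on chromosome 8, 22628119 to 22653464. It measured 60.0, 63.3 and 64.5 CPM across WT and 48.2, 46.3 and 40.8 CPM in the libraries labelled Sirt6 KO. The WT libraries were close to each other and clearly above the rest. Polb fell by 0.47 on the log2 scale (SE 0.10, 95% interval -0.72 to -0.23, adjusted p = 0.0274). Its locus overlaps the long non-coding RNA gene A930013F10Rik, which was at 1.76 CPM in WT and 1.31 CPM in the libraries labelled Sirt6 KO, small beside the level of Polb.

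Parp1 missed the threshold although its groups did not overlap. Its level was 67.4, 67.8 and 89.6 CPM in WT and 105, 95.7 and 106 CPM in the libraries labelled Sirt6 KO. WT replicate 3 lay between its group and the other. The log2 fold change was 0.45 ± 0.14 (SE, 95% interval 0.12 to 0.77, adjusted p = 0.0677). It passed in 5 of the 17 alternatives and kept its sign in all of them. Parp2, the second break-activated polymerase of ADP-ribose, stood at 0.19 (adjusted p = 0.434).

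None of the 5 glycosylases passed. Ogg1, which removes 8-oxoguanine, was at 2.43 ± 0.404 and 3.52 ± 0.136 CPM in the same order, without overlap (log2 fold change 0.54, adjusted p = 0.0979). Mutyh, which removes adenine opposite that lesion, Neil1 and Neil2 had log2 fold changes of 0.76, 0.39 and 0.65 with overlapping groups and adjusted p of 0.169 to 0.268. Ung, the uracil glycosylase, varied within both groups: 15.9, 20.0 and 13.6 CPM in WT and 6.75, 19.0 and 9.64 CPM in the libraries labelled Sirt6 KO (log2 fold change -0.48, adjusted p = 0.371). Of the later steps, Apex1, Xrcc1 and Lig3 had log2 fold changes of 0.13, 0.09 and -0.01, with intervals that reached no further than -0.29 and 0.55. Lig1, the ligase of replicating cells, was low, at 1.04 ± 0.46 and 1.80 ± 0.169 CPM, with no overlap (0.79, adjusted p = 0.141).

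**Figure D3:**
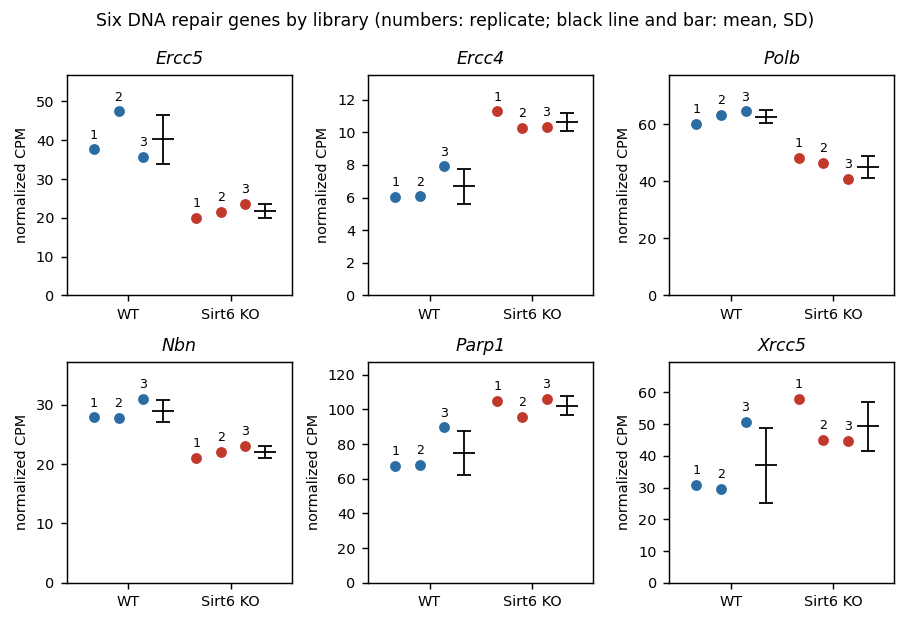
Normalized CPM (axis from 0) of 6 repair genes in each library, with replicate numbers, and the group mean and SD as black lines and bars. Ercc5, Polb and Nbn are lower in every library labelled Sirt6 KO and Ercc4 and Parp1 are higher in every one; for Ercc4, Parp1 and Xrcc5, WT replicate 3 is the WT library nearest to the other group.

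Break sensing and signalling likewise gave 1 call among 7 genes. Nbn, which encodes NBS1, the subunit of the MRN complex that brings ATM to breaks, lies on chromosome 4, 15957587 to 15992589. Its level was 27.8, 27.8 and 31.0 CPM in WT and 21.0, 22.1 and 23.0 CPM in the libraries labelled Sirt6 KO. The groups were separate and tight. Nbn fell by 0.39 on the log2 scale (SE 0.10, 95% interval -0.63 to -0.15, adjusted p = 0.0415). The other MRN subunits differed the other way without passing the test. The nuclease Mre11a was at 15.0 ± 2.14 and 18.8 ± 1.25 CPM (log2 fold change 0.32, adjusted p = 0.14) and Rad50 at 7.42 ± 0.874 and 9.59 ± 0.955 CPM (0.37, adjusted p = 0.124), both with all libraries labelled Sirt6 KO above all WT libraries.

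Neither damage kinase passed. Atm was at 19.7 ± 3.07 and 19.8 ± 1.71 CPM (log2 fold change 0.00, 95% interval -0.33 to 0.34). Atr, which responds to single-stranded DNA, was at 11.4 ± 0.812 and 9.14 ± 0.693 CPM, with every library labelled Sirt6 KO below every WT library (-0.32, adjusted p = 0.115), and with the trend on GC content removed, as described below, at -0.023. Trp53bp1, the chromatin reader that favours end joining, was at 30.1 ± 6.12 and 41.9 ± 6.99 CPM (0.48, adjusted p = 0.109). H2afx, the histone phosphorylated at breaks, had a log2 fold change of 0.24 (adjusted p = 0.397).

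None of the 5 end joining genes passed the edgeR test. One of them, Lig4, had an unadjusted p below 0.05. DESeq2 called none of the 5 either. Xrcc5, the most abundant, was at 30.8, 29.6 and 50.7 CPM in WT and at 58.0, 44.9 and 44.8 CPM in the libraries labelled Sirt6 KO. WT replicate 3 lay inside the range of the other group, and the log2 fold change was 0.41 ± 0.23 (SE, adjusted p = 0.234). Its partner Xrcc6 stood at 27.9 ± 3.69 and 28.6 ± 1.10 CPM (0.04, 95% interval -0.25 to 0.32). Prkdc, the catalytic subunit of DNA-PK, had a log2 fold change of -0.06 (95% interval -0.42 to 0.30). The ligase Lig4 and its partner Xrcc4 had values of 0.50 (adjusted p = 0.123) and 0.18 (adjusted p = 0.537).

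Homologous recombination held the 2 lowest genes. Among the pathways of the list it alone had a negative median log2 fold change, -0.23 over 4 genes. Over 13 other genes of this pathway, taken up below, the median was -0.01. None of the 4 passed by edgeR or by DESeq2, and Brca2 alone had an unadjusted p below 0.05. Rad52, the most abundant, was at 8.52, 10.3 and 12.7 CPM in WT and at 8.82, 9.57 and 9.99 CPM in the libraries labelled Sirt6 KO, with the latter inside the WT range (log2 fold change -0.15 ± 0.17 (SE), adjusted p = 0.549). Xrcc2, which acts in strand exchange, was at 6.27 ± 0.892 and 5.05 ± 0.571 CPM (-0.31, adjusted p = 0.238). Brca2, which acts at resected ends, was at 0.706 ± 0.0858 and 1.22 ± 0.131 CPM from 30 to 80 counts a library, with separate groups (0.78, adjusted p = 0.0865). Brca1 could not be resolved at its depth (-0.52, 95% interval -1.84 to 0.79).

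Of the 3 mismatch repair genes none passed the edgeR test, and Msh6 had an unadjusted p below 0.05. MSH3 and MSH6 are alternative partners that recognize loops and single mismatches. Msh3, the most abundant, was at 20.7, 24.3 and 21.8 CPM in WT and 22.7, 22.0 and 19.6 CPM in the libraries labelled Sirt6 KO. The groups overlapped (log2 fold change -0.06 ± 0.11 (SE), adjusted p = 0.757). Msh6 was at 5.47 ± 0.296 and 7.37 ± 0.412 CPM without overlap (0.43, adjusted p = 0.0714), and DESeq2 called it higher. Pms2, the endonuclease subunit, had a log2 fold change of 0.54 (adjusted p = 0.193).

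WT replicate 3 bore on many of these values. It was above both other WT libraries in 26 of the 41 repair genes (63.4%), against 44.4% of all genes tested, and below both in 8. In 15 repair genes it lay inside the range of the libraries labelled Sirt6 KO. Without it, 9 repair genes were called higher, namely Ogg1, Neil1, Apex1, Parp1, Xrcc5, Lig4, Trp53bp1, Ercc2 and Ercc4, and Ercc5, Polb and Nbn remained lower. At the same time the share called among all genes was 32.5%, with 16.7% of all genes called higher. With the summed slow fiber markers as a covariate, chosen after the data had been seen, 7 repair genes were called higher (Parp1, Xrcc5, Lig4, Trp53bp1, Ercc2, Ercc4 and Msh6) and the same 3 lower, against 30.3% of all genes called and 15.0% called higher. Parp1 was called in both, with log2 fold changes of 0.60 and 0.42. With DESeq2 the repair genes called higher were Parp1, Ercc2, Ercc4 and Msh6, and the lower ones were the same 3, against 25.6% of all genes. In the opposite direction, without Sirt6 KO replicate 1 or without replicate 3 edgeR called none of the 41, and 0.0568% and 0.0921% of all genes. In these analyses 5 and 11 repair genes had an unadjusted p below 0.05, against 25.7% and 24.3% of all genes. Without WT replicate 1, WT replicate 2 or Sirt6 KO replicate 2, Ercc5 was the only one called, so Polb and Nbn, like Ercc4, passed in 1 of the 6 analyses that left out a library. Their adjusted p reached 0.124 and 0.143 there, with log2 fold changes of -0.52 to -0.40 and -0.42 to -0.33.

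The fold changes of these genes also moved with base composition. The median GC content of the longest transcript was 48.0% for the repair genes (40.8% to 62.3%) and 49.8% for all genes tested. Spearman's correlation of log2 fold change with GC content was 0.28 over the 41 repair genes and 0.33 over 13715 genes; genes are not independent and share the same 6 libraries. Of the 25 repair genes under 50% GC, 11 had a negative log2 fold change, with a median of 0.09, beside -0.18 for all genes under 50%. At or above 50%, 1 of 16 was negative, Ercc1, with a median of 0.33, beside 0.16 for all genes. The part of GC content in the differences was not tested. With the trend on GC content removed in each library, Ercc5 (log2 fold change -0.82, adjusted p = 0.0307) and Ercc4 (0.66, adjusted p = 0.0479) were the repair genes called, while Polb was at -0.26 (adjusted p = 0.147) and Nbn at -0.21 (adjusted p = 0.212). Among genes called in neither fit, Lig4 grew to 0.77 (adjusted p = 0.0591) and Brca2 to 1.03 (adjusted p = 0.0604). Parp1 shrank to 0.32 (adjusted p = 0.178) and Ercc2 to 0.41 (adjusted p = 0.224). In the analysis with the trend removed, 6.93% of all genes were called, 3.41% higher. The median over the repair genes was then 0.20, beside -0.01 for all genes.

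**Figure D4:**
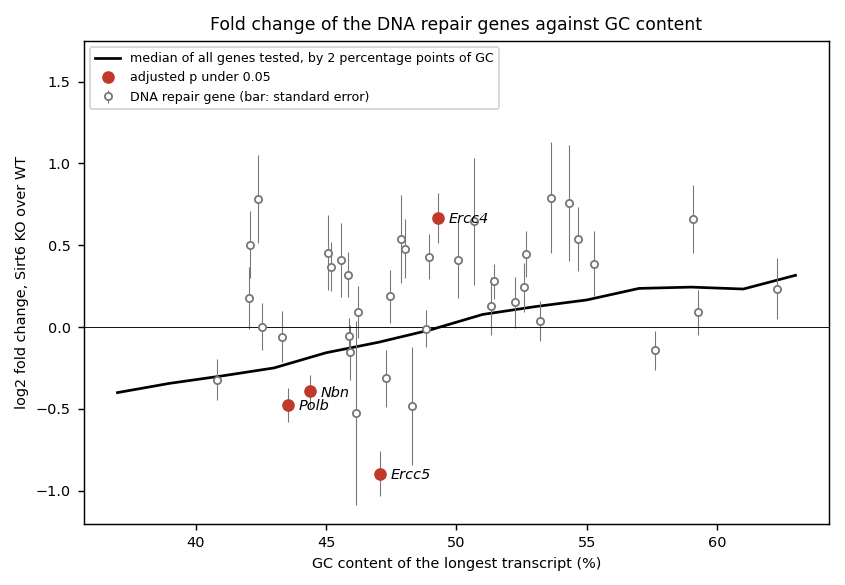
Log2 fold change (libraries labelled Sirt6 KO over WT) of each DNA repair gene against the GC content of its longest transcript, with standard errors, and the median of all genes tested in steps of 2 percentage points of GC as a line. The line climbs from negative values at low GC to positive values at high GC. Polb and Nbn lie below its low-GC part, Ercc5 lies further below it and Ercc4 lies above it.

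Genes called were about as frequent among 85 other repair genes. Of these, 76 passed the filter on low counts. Their log2 fold change was positive in 44 (57.9%), beside 70.7% of the 41 genes, with a median of 0.12. The median was positive in base excision (0.31 over 13), end joining (0.15 over 5), Fanconi anaemia (0.38 over 10) and direct reversal genes (0.32 over 3). It was negative in break sensing (-0.10 over 12) and mismatch repair (-0.06 over 3). It was also negative in nucleotide excision repair (-0.03 over 17) and homologous recombination (-0.01 over 13). Of the 76, 4 were called higher and 3 lower (9.21%). Among the higher genes were Aptx, which trims blocked DNA ends (log2 fold change 0.71 ± 0.17 (SE), adjusted p = 0.0331), Nthl1, a glycosylase for oxidized pyrimidines (1.00 ± 0.27, adjusted p = 0.0448) and Fance of the Fanconi anaemia core complex (0.55 ± 0.14, adjusted p = 0.0397). The lower genes were Ccnh, the cyclin of the TFIIH kinase (-0.54 ± 0.11, adjusted p = 0.0243), Parp3, a further ADP-ribose transferase that acts at double-strand breaks (-0.46 ± 0.12, adjusted p = 0.0376), and Rad17, a clamp loader of the ATR pathway (-0.44 ± 0.11, adjusted p = 0.0397). Of these named genes, Aptx (0.72) and Parp3 (-0.58) were still called with the GC trend removed, while Nthl1 was at 0.82, Fance at 0.28, Ccnh at -0.18 and Rad17 at -0.01, none of them called. Ercc8, a transcription-coupled repair gene looked at after its value was seen, had an adjusted p of 0.122 before the trend was removed and 0.0479 after (log2 fold changes 0.42 and 0.72). Smarca5, the remodeler that SIRT6 brings to breaks, was at 57.4, 54.4 and 57.7 CPM in WT and 41.2, 43.1 and 43.1 CPM in the libraries labelled Sirt6 KO, with no overlap (log2 fold change -0.41 ± 0.09 (SE), adjusted p = 0.0271). With the GC trend removed its value was -0.11 (adjusted p = 0.459).

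The libraries came from whole muscle, in which fewer cells of a type and less RNA per cell cannot be told apart. Genes of replication and recombination are known from dividing cells. The summed level of 10 cycling cell markers was 13.1, 14.5 and 16.3 CPM in WT and 23.4, 22.1 and 19.0 CPM in the libraries labelled Sirt6 KO. Only 6 of the 10 passed the filter on low counts, and Bub1 was at 0 in every library. Mcm2 and Mcm5 were called higher. Most of the sum was Mcm2, at 10.4 ± 1.74 and 18.0 ± 2.19 CPM, WT first. Without Mcm2 and Mcm5 the remaining markers were together lower on average with the Sirt6 KO label. Erythroid markers summed to 297, 291 and 46.6 CPM in WT and 110, 181 and 80.2 CPM in the libraries labelled Sirt6 KO. Summed satellite cell markers were 43.8 to 72.4 CPM in WT and 41.8 to 47.5 CPM in the libraries labelled Sirt6 KO, but 2 of the 5 were called higher: Pax7, which defines these muscle stem cells, at 0.483 ± 0.0601 and 1.18 ± 0.144 CPM (log2 fold change 1.28, adjusted p = 0.0299), and Myf5 at 1.41 ± 0.339 and 3.54 ± 0.717 CPM (1.33, adjusted p = 0.0225). Of the 6 macrophage markers Cd14 was called lower. Their part in the differences of the repair genes was not tested.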

How the data were processed

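Poly-A RNA of gastrocnemius muscle was sequenced as 1 library for each of 6 mice. The submitters' notes name mm10, HISAT2 2.1.0, Bowtie2 2.3.4.1 and StringTie 2.1.3b, whereas the study's reporting summary names STAR. A stranded TruSeq kit is named in the labels and another TruSeq kit in the methods, and the counting was not stated to use strand, so that reads of overlapping genes may be shared; 18 of the 41 repair genes overlap another RefSeq gene, 12 of them a protein-coding one. The authors deposited read counts, FPKM and TPM per gene in 1 table. The deposited counts were tested, the FPKM deposited by the authors served to compare levels between genes and in limma alternatives, and the deposited TPM only to look at Sirt6 a second time.

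Counts were filtered (filterByExpr), scaled by TMM (factors 0.909 to 1.11) and tested with edgeR 4.0.16 (quasi-likelihood, group only, 4 residual degrees of freedom, Benjamini-Hochberg over 13801 genes, threshold 0.05) in R 4.3.3. The common biological coefficient of variation was 24.1%. Standard errors are the size of the log2 fold change over the root of F. DESeq2 1.42.0 and limma 3.58.1 served in alternatives, together with other filters, scaling, thinning, a loess on GC content (span 0.3), a replicate block and each library left out. A covariate for slow fiber markers was added after seeing the data. Exact permutation tests used scipy 1.17.1. Counts were simulated for the same 6 libraries (13561 genes, 200 changed by 2 on the log2 scale). There edgeR recovered 94.5% with 4.54% false calls, and DESeq2 98% with 21.0% false. With a GC trend put into such counts, edgeR recovered 94.5% with 32.7% false calls. With that trend removed again, edgeR recovered 95% with 5.47% false calls. The main fit did not remove a GC trend.

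The genes and lists were chosen with earlier results of these data known. Full values are given for genes called, Parp1, the gene of each pathway with the highest mean FPKM, the other repair genes called (1 of which is not reported here), and Smarca5. GC content came from GENCODE M21 transcripts and positions and promoters from RefSeq, both GRCm38. Intervals cover the spread between mice only.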

Additional observations from a re-analysis of the deposited data

How the results depend on the processing

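With 3 mice a group, calls near the threshold depended on single libraries and on the scaling; the causes were not tested. Over all genes, 1084 were called higher and 1158 lower. These counts became 1730 and 1801 with DESeq2, 467 and 483 with the GC trend removed, 245 and 322 with GC trend removal and the replicate block together, and 2076 and 2110 with the slow fiber covariate, and ranged over 6 to 2363 and 2 to 2219 when each library was left out, lowest without Sirt6 KO replicate 1 and highest without WT replicate 3. Among the 41 repair genes, the 1 called higher became 4 with DESeq2, 2 with the block, 0 with GC trend removal and block, and 7 with the covariate, and 0 to 9 with a library left out. The 3 called lower became 1 with the block, 1 with the GC trend removed and 1 with both, and 0 to 3 with a library left out. Ercc5 was lower in each of the 3 GC and block analyses. With GC trend removal and block 12 of the 41 (29.3%) had an unadjusted p below 0.05, beside 30.2% of all genes. Among the other repair genes, the 4 higher became 7 with DESeq2, 2 with the block, 1 with GC trend removal and block and 9 with the covariate, and 0 to 12 with a library left out. The 3 lower became 6 with DESeq2, 1 without a filter on low counts, 5 in both limma analyses, 1 with the block, 1 with the GC trend removed, 0 with GC trend removal and block, 6 with the covariate, and 0 to 5 with a library left out. The median log2 fold change of the repair genes stayed positive, at 0.16 to 0.35 with a library left out, as did that of Sirt6, at 1.37 to 1.55. The E2F form TTCCCGCC went from 3.23% to 0% of promoters when only bases before the start were searched.

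Labels give both groups the replicate numbers 1 to 3, but the deviations of same-numbered libraries correlated at -0.098, 0.239 and 0.147, and WT replicate 1 correlated best with Sirt6 KO replicate 2 (0.197), so the numbers were not taken to pair mice. With the replicate block 904 genes were called higher and 1018 lower, and of the repair genes Ercc2 and Ercc4 higher and Ercc5 lower.

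Of 687 values of single repair genes under the 17 alternatives, 613 kept their direction and side of the threshold, and most of these belonged to genes not called. A call was lost in 27 and gained in 20. All 27 losses fell on genes called in the main fit: Polb lost its call in 8 of the 17, Nbn in 9, Ercc4 in 8 and Ercc5 in 2. The sign changed in 27 values, in 9 genes whose log2 fold change was at most 0.24 in size. With the GC trend removed, without and with the block, Xrcc1 was at -0.16 and -0.15, Xrcc6 at -0.10 and -0.10, Prkdc at 0.16 and 0.14, H2afx at -0.042 and -0.034 and Msh3 at 0.063 and 0.064. With limma Prkdc was at 0.0053 and 0.0067. With thinned counts Lig3 was at 0.037 and Atm at -0.00058, and with the covariate Atm was at -0.019. With a library left out, Xrcc1 ranged over -0.0098 to 0.22, Lig3 over -0.051 to 0.069, Xrcc6 over -0.045 to 0.15, Prkdc over -0.24 to 0.034, Rad52 over -0.27 to 0.0096, Atm over -0.11 to 0.11, Ercc6 over -0.045 to 0.19 and Msh3 over -0.098 to 0.011. Depth limited Brca1 most, with 5 to 11 counts a library.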
